A study of Mus musculus with 16 samples.

Results

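Cholesterol is built from acetyl-CoA in a long chain of enzymatic steps, and 7 genes of that route, Hmgcs1, Idi1, Fdps, Fdft1, Sqle, Cyp51 and Srebf2, were followed in mouse colony-forming unit-erythroid (CFU-E) cells. They were chosen by name, as 7 of 15386 genes of the RNA-seq table and 7 of 13490 genes of the m6A table, and were found in both. Of these, 6 encode enzymes of the route and Srebf2 encodes its transcription factor, so none takes up cholesterol from outside the cell, and genes of sterol uptake and transport were described as a separate list.

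CFU-E cells are committed erythroid progenitors of the bone marrow that still divide before they become proerythroblasts. The study asked what erythroid cells lose without Mettl3, the catalytic subunit of the complex that writes N6-methyladenosine (m6A) into mRNA. RNA-seq was made from 3 control CFU-E samples and from 3 samples of the low-Kit fraction of Mettl3-deficient CFU-E (named Kit-lo here), and m6A immunoprecipitation (IP) from control CFU-E with 2 IP and 2 input libraries. All mice were adult and on the C57BL/6 background, and both sexes were used.

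Mettl3-deficient mice carried the floxed allele on both chromosomes and 1 copy of EpoR-tdTomato-Cre (Mettl3 fl/fl EpoR Cre/-). This Cre is driven from the erythropoietin receptor locus, which recombines in erythroid cells and in the macrophages of erythroblastic islands, and partly in hematopoietic stem cells, so the deletion is not restricted to the sorted population. The genotype of the control mice is not spelled out in the labels. Control CFU-E cells were sorted as lineage-negative cells positive for Kit and CD71, whereas Kit-lo cells were those in the mutant with a very low surface level of Kit. Control cells of the same low-Kit gate were not analysed here, so genotype and Kit gate cannot be told apart in any difference below. The labels do not say whether replicates came from separate animals, and p-values then measure only the spread between these samples, which may be technical.

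Hmgcs1 acts at the entry of the mevalonate route, and Idi1 and Fdps turn the isoprenoid units made there into farnesyl pyrophosphate. Fdft1 joins farnesyl units into squalene, Sqle oxidises squalene, and Cyp51 removes a methyl group from lanosterol. In sterol-poor cells the chaperone Scap carries SREBP2, the product of Srebf2, to the Golgi, where proteases release the part that enters the nucleus and activates genes of synthesis and uptake. Insig1 and Insig2 hold Scap in the endoplasmic reticulum when sterols are plentiful, and Insig1 is itself a target of this factor. Erythroid cells need membrane cholesterol while they divide, and mature red cells no longer make it.

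In GRCm38 the members lie apart on 5 chromosomes. Hmgcs1 occupies chr13:119690379-119708260 on the plus strand and Idi1 chr13:8885501-8892451 on the plus strand. Sqle spans chr15:59315077-59331192 and Srebf2 chr15:82147181-82205379, both on the plus strand. Fdps lies at chr3:89093588-89101959, Fdft1 at chr14:63145150-63179578 and Cyp51 at chr5:4081145-4104746, all on the minus strand. Only Sqle and Srebf2 share no exonic base with another annotated gene.

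The promoters of the 4 members with an entry in the RefSeq table of GRCm38.p6 were searched on both strands for TCACNCCAC, the core of a sterol regulatory element, for CCAAT and for GGGCGG. They are shown because the results turn on Hmgcs1, called in RNA-seq, and Idi1, called in IP, with Cyp51 and Srebf2 beside them. Each window runs from 250 bases before the annotated start to 50 bases after it, namely chr13:119690101-119690400 (plus) for Hmgcs1, chr13:8885356-8885655 (plus) for Idi1, chr5:4104648-4104947 (minus) for Cyp51 and chr15:82147019-82147318 (plus) for Srebf2. Capitals mark TCACNCCAC and CCAAT, the latter printed as ATTGG where it reads on the other strand.
Hmgcs1 promoter: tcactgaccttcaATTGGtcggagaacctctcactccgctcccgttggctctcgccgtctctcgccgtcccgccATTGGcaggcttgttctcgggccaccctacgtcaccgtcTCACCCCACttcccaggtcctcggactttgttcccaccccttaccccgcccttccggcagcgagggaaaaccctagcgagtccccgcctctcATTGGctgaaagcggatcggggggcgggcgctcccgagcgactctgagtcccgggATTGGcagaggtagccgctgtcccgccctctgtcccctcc
Idi1 promoter: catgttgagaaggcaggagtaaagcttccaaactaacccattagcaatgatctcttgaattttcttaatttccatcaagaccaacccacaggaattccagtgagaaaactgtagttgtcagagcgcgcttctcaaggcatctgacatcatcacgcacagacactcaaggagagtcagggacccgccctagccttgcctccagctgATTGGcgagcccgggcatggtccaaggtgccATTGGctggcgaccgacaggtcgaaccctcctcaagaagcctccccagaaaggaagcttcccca
Cyp51 promoter: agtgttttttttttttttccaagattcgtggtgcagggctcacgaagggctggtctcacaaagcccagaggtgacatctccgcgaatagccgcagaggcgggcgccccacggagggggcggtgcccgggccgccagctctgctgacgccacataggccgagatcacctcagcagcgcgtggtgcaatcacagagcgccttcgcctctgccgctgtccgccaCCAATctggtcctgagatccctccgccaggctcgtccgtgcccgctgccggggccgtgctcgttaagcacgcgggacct
Srebf2 promoter: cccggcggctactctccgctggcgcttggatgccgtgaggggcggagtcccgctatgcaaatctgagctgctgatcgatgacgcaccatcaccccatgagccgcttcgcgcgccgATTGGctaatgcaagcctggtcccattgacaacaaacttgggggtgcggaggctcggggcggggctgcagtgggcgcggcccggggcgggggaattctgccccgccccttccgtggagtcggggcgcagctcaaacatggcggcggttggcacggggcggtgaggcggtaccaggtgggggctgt

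TCACNCCAC occurred only in the Hmgcs1 window among these 4, as TCACCCCAC beginning 137 bases before the start, and 1.24% of 32851 windows of the same length held it. CCAAT occurred 4 times in the Hmgcs1 window, 2 times in that of Idi1 and 1 time each in those of Cyp51 and Srebf2, and 37.4% of all windows held at least 1. GGGCGG was found 3 times for Hmgcs1, 5 times for Srebf2 and 1 time each for Idi1 and Cyp51, against 35.7% of all windows with a match. The window of Insig1, which also fell in Kit-lo cells, was searched in the same way. It held 0 TCACNCCAC, 1 CCAAT and 3 GGGCGG. A match describes letters only, and a window without one says nothing of whether the factor binds.

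The targeted gene and the gate were examined first. Mettl3 mRNA averaged 123 ± 7.43 CPM in control and, in libraries labelled as lacking Mettl3, 117 ± 9.52 CPM (SD, n = 3 each), which gave a log2 fold change of -0.068 with an adjusted p of 0.634 (edgeR's quasi-likelihood test, Benjamini-Hochberg). These gene-level counts did not show the deletion, and counts over the floxed exons were not analysed here, so each direction below rests on the labels. In erythroid cells of such mice the study reported Mettl3 as absent by qRT-PCR and Western blot. It also reported a lower global m6A level there by a colorimetric assay. Kit, whose protein set the gate, was at 598 ± 47.1 CPM in control and 55.2 ± 12.4 CPM in Kit-lo libraries. CPM (counts-per-million) was computed after TMM normalization. Library totals were between 17429262 and 21329242 counts in the RNA-seq. In bulk samples fewer expressing cells and less RNA per cell cannot be told apart.

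In RNA-seq, Hmgcs1 fell in Kit-lo cells, Fdps and Srebf2 were lower by less than the 1.5-fold used for a call, and Sqle, Idi1, Cyp51 and Fdft1 were not called. In all, 1 of 7 members was called lower and 0 of 7 higher, at a fold of at least 1.5 and an adjusted p under 0.05. Among all 11979 genes tested, 9.83% were called lower and 12.1% higher, and with 7 members a count of 1 or 0 does not stand out from that background. The count of 0 higher was the same by DESeq2, with 1 member higher at an unadjusted p under 0.05 (edgeR), Fdft1. At an adjusted p under 0.05 with no limit on the fold, 3 members were lower and 0 higher. Of the 11979 genes tested, 2024 were lower and 2104 higher at that limit (edgeR, Benjamini-Hochberg). The median log2 fold change of the members was 0.0013, against 0.0080 for all genes tested. All Kit-lo values lay below all control values for 3 members and above them for 1. Over the 11979 genes tested, the same held for 2876 and 2812 genes, so such separation was common. The summed level of the 7 genes was 474 to 548 CPM in control and 466 to 489 CPM in Kit-lo libraries, so the sums overlapped.

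**Figure D1:**
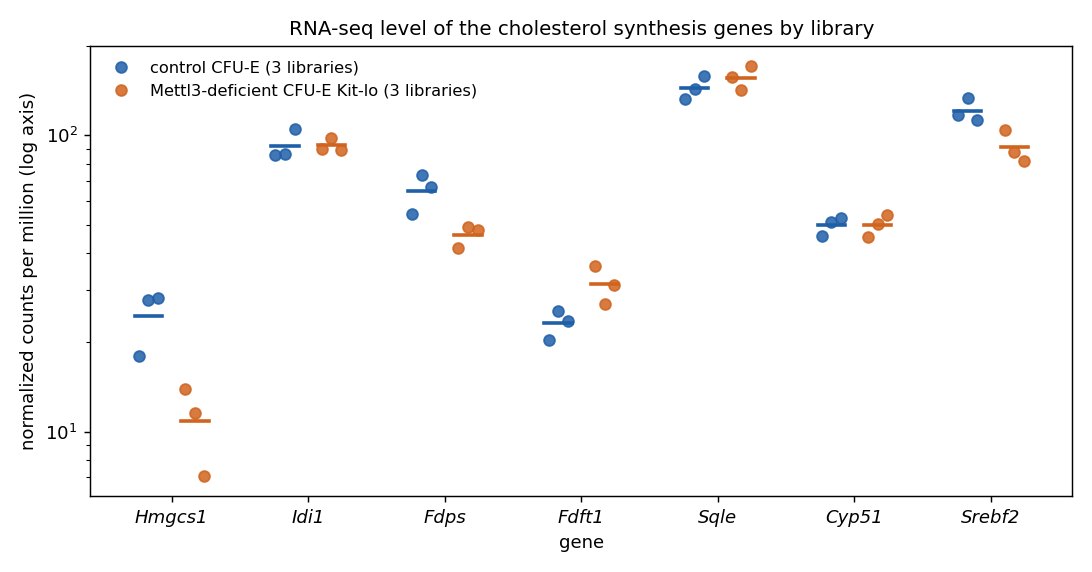
RNA-seq level of each member (TMM-normalized CPM, log axis) in the 3 control CFU-E libraries and the 3 Mettl3-deficient CFU-E Kit-lo libraries. Points are libraries and lines are group means. All Kit-lo points of Hmgcs1, Fdps and Srebf2 lie below all control points, those of Fdft1 lie above, and those of Sqle, Idi1 and Cyp51 overlap with control.

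Hmgcs1 encodes a cytosolic synthase at the entry of the mevalonate route. Its level was 18.1, 27.7 and 28.2 CPM in control and 14.0, 11.6 and 7.09 CPM in Kit-lo libraries. Every Kit-lo library was below every control library. Group means were 24.7 ± 5.72 and 10.9 ± 3.49 CPM (SD, n = 3 each), and the log2 fold change was -1.18 (SE 0.26, 95% interval -1.77 to -0.59), or 2.26-fold lower, with an adjusted p of 0.00649 (edgeR quasi-likelihood, Benjamini-Hochberg). The raw counts behind these values were 377 to 492 in control and 136 to 269 in Kit-lo libraries. An antisense gene, Gm48342, covers 12.1% of the exonic bases of Hmgcs1 and is not in the RNA-seq table.

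Fdps, which makes farnesyl pyrophosphate for both sterols and protein prenylation, was at 54.2, 73.6 and 67.0 CPM in control and at 41.6, 49.1 and 47.9 CPM in Kit-lo libraries. The groups did not overlap, but the difference was small: -0.49 on the log2 scale (SE 0.14, 95% interval -0.79 to -0.19), or 1.41-fold lower, with an adjusted p of 0.0186 (edgeR quasi-likelihood, Benjamini-Hochberg). It was therefore under the fold needed for a call. Without control replicate 1 the log2 fold change was -0.61 with an adjusted p of 0.0111 (edgeR, Benjamini-Hochberg), which would be a call, and without control replicate 2 it was -0.40 with an adjusted p of 0.0783 (edgeR, Benjamini-Hochberg). Fdps shares 26.7% of its exonic bases with Gm43738 on the same strand and resembles 5 processed pseudogenes at 91.1% to 98.9% identity, so its reads could be split in the counting. None of these 6 genes is in the RNA-seq table.

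Srebf2, the transcription factor gene, was at 117, 134 and 113 CPM in control and at 105, 87.8 and 82.0 CPM in Kit-lo libraries. All Kit-lo values were below all control values. The means of 121 ± 11.2 and 91.5 ± 11.8 CPM differed by -0.41 on the log2 scale (SE 0.12, 95% interval -0.67 to -0.15), or 1.33-fold, with an adjusted p of 0.0216 (edgeR quasi-likelihood, Benjamini-Hochberg), also under the fold threshold. The adjusted p rose to at most 0.0979 (edgeR, Benjamini-Hochberg) when Kit-lo replicate 2 was left out. mRNA level does not measure how much SREBP2 is processed.

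Fdft1, which commits farnesyl units to sterols, was at 20.4, 25.5 and 23.6 CPM in control and at 36.3, 26.9 and 31.2 CPM in Kit-lo libraries. It was the single member whose Kit-lo values all exceeded the control values. The log2 fold change of 0.44 (SE 0.16, 95% interval 0.093 to 0.79) had an adjusted p of 0.0523 (edgeR quasi-likelihood, Benjamini-Hochberg) and was not called. Exons of Ctsb on the opposite strand cover 18.3% of the exonic bases of Fdft1. Whether the counting used strand is not stated, so reads of the pair may not have been separated.

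Sqle encodes squalene epoxidase, a second rate-controlling step of sterol synthesis. It was at 133, 143 and 159 CPM in control and at 157, 142 and 171 CPM in Kit-lo libraries. The groups overlapped, with a log2 fold change of 0.11 (95% interval -0.11 to 0.34) and an adjusted p of 0.438 (edgeR, Benjamini-Hochberg). Idi1, the isopentenyl pyrophosphate isomerase, was at 85.9, 86.5 and 105 CPM in control and at 90.2, 98.3 and 89.1 CPM in Kit-lo libraries. Its log2 fold change was 0.0027 (95% interval -0.24 to 0.24), with an adjusted p of 0.988 (edgeR, Benjamini-Hochberg), and the groups overlapped. Cyp51, the lanosterol demethylase, was at 45.8, 50.8 and 52.5 CPM in control and at 45.2, 50.1 and 53.9 CPM in Kit-lo libraries. These groups overlapped too, with a log2 fold change of 0.0013 (95% interval -0.26 to 0.26) and an adjusted p of 0.995 (edgeR, Benjamini-Hochberg). For Idi1 and Cyp51 the intervals thus reached at most 0.26 on the log2 scale in either direction. The processed pseudogene Gm13502, identical to Idi1 over 684 bases, was itself counted at 21.7 to 23.2 CPM in control and 19.5 to 21.4 CPM in Kit-lo libraries, so some Idi1 reads may have been assigned to it.

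Levels between genes were compared per kilobase of the longest coding transcript, in control libraries. Sqle had 52.6 ± 4.75 CPM per kilobase and Fdps 47.0 ± 7.12 (SD, n = 3 each), and these neighbours overlapped. Idi1 followed at 30.5 ± 3.53, Srebf2 at 23.9 ± 2.21 and Cyp51 at 12.6 ± 0.891 CPM per kilobase, each without overlap with the next. Hmgcs1 and Fdft1 were lowest, at 7.12 ± 1.65 and 6.27 ± 0.699 CPM per kilobase, and overlapped. The member called lower was thus among the 2 least abundant of the 7.

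The members also differed among themselves across libraries. Averaged over the members, centred log2 CPM was -0.066, 0.20 and 0.20 in control and -0.036, -0.12 and -0.17 in Kit-lo libraries, and control replicate 1 was below Kit-lo replicate 1. The distance of a member from that mean pattern over the 6 libraries ran from 0.368 for Srebf2 to 1.38 for Hmgcs1. The 5 tested genes outside the lists nearest to the mean pattern were Map2k1, Ndfip1, Smarcal1, Usp47 and Pofut1, at Euclidean distances of 0.0866 to 0.131 over 6 libraries, and none of the 5 was called.

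Of 14 other synthesis enzymes, 2 rose, 0 fell and 12 were not called, with a median log2 fold change of 0.24. For this list and the RNA-seq lists below, the shares over all 11979 tested genes were 12.1% higher and 9.83% lower. The count of 0 lower was the same by DESeq2, with 2 lower at an unadjusted p under 0.05 (edgeR), and it was 1 without Kit-lo replicate 1. Pmvk, the phosphomevalonate kinase, was at 68.3, 76.6 and 66.9 CPM in control and at 131, 128 and 111 CPM in Kit-lo libraries. It rose by 0.81 on the log2 scale (SE 0.10) with an adjusted p of 0.000263 (edgeR quasi-likelihood, Benjamini-Hochberg). Sc5d, a desaturase late in the route, rose by 0.79 on the log2 scale, with 31.7 ± 3.64 CPM in control and 54.7 ± 2.97 CPM in Kit-lo libraries (SE 0.13, adjusted p 0.000959, edgeR, Benjamini-Hochberg).

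**Figure D2:**
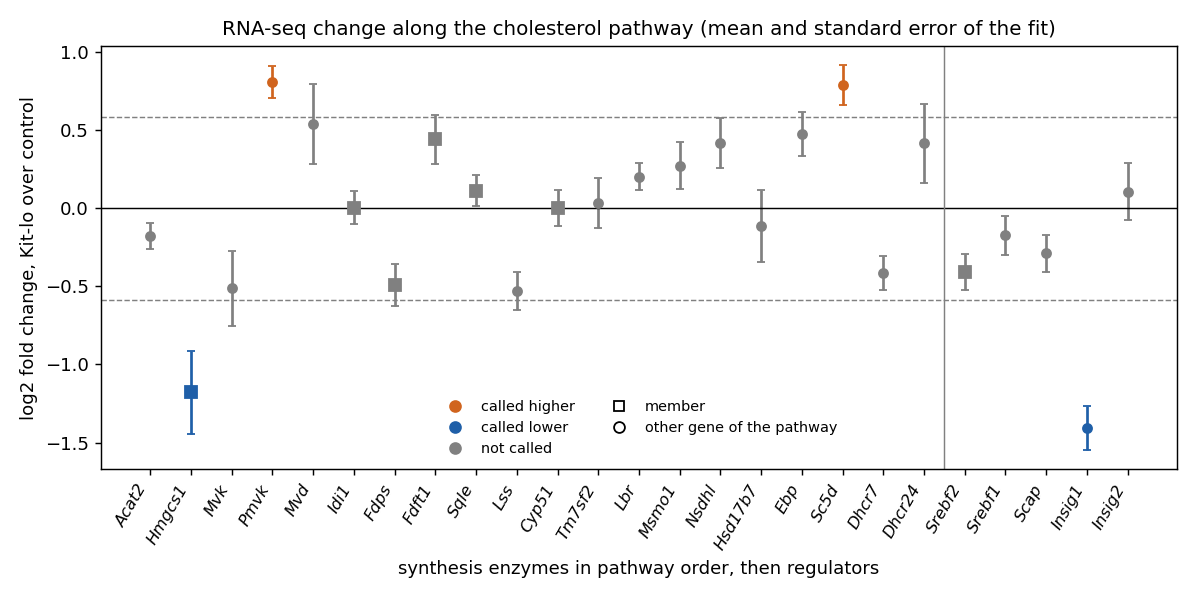
RNA-seq log2 fold change of Kit-lo over control for synthesis enzymes in pathway order, then regulators. Points are estimates of the edgeR fit on 3 against 3 libraries, bars are standard errors, squares are the 7 members, and dashed lines mark the 1.5-fold limit. Hmgcs1 at -1.18 and Insig1 at -1.41 are called lower, and Pmvk at 0.81 and Sc5d at 0.79 are called higher.

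Among 10 genes of SREBP processing and feedback, 1 rose, 1 fell and 8 were not called, with a median log2 fold change of 0.069. Insig1 was at 31.7, 30.1 and 36.3 CPM in control and at 12.3, 12.2 and 12.6 CPM in Kit-lo libraries. The groups lay far apart, and Insig1 fell by 1.41 on the log2 scale (SE 0.14), 2.65-fold, with an adjusted p of 6.15e-05 (edgeR quasi-likelihood, Benjamini-Hochberg). Insig2 overlapped between groups at 13.0 ± 1.76 and 14.0 ± 1.46 CPM (adjusted p 0.706, edgeR, Benjamini-Hochberg). Scap was at 49.5 ± 3.83 and 40.5 ± 3.45 CPM (adjusted p 0.0911, edgeR, Benjamini-Hochberg). Rnf139, an endoplasmic reticulum ubiquitin ligase, rose by 0.74 on the log2 scale, with means of 45.1 ± 1.98 and 75.1 ± 7.82 CPM (adjusted p 0.000754, edgeR, Benjamini-Hochberg).

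Uptake and intracellular transport of sterols was measured by 12 genes, of which 10 were tested, 2 rose, 1 fell and 7 were not called, with a median log2 fold change of 0.13. Lipa, the lysosomal lipase that frees cholesterol from its esters, fell by 1.42 on the log2 scale, with means of 163 ± 8.32 and 60.8 ± 8.25 CPM (SE 0.11, adjusted p 1.44e-05, edgeR, Benjamini-Hochberg). Mylip, a ubiquitin ligase that acts on lipoprotein uptake, was at 6.90, 5.72 and 4.87 CPM in control and at 7.69, 21.3 and 17.6 CPM in Kit-lo libraries. It rose by 1.41 on the log2 scale (SE 0.34, adjusted p 0.00993, edgeR, Benjamini-Hochberg), with Kit-lo replicate 1 close to the controls. Lrp1, an endocytic receptor, was called higher from a very low level of 0.195 ± 0.289 to 1.29 ± 0.367 CPM (adjusted p 0.0495, edgeR, Benjamini-Hochberg), and the number of genes called higher on this list was 0 without control replicate 3.

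The neighbouring lipid lists are given for comparison, beside 12.1% higher and 9.83% lower over all tested genes. Of 11 efflux and storage genes, 8 were tested, 1 fell and 0 rose. That gene was Apoe, a lipoprotein component, at 127 ± 13.3 CPM in control and 9.66 ± 0.610 CPM in Kit-lo libraries, a log2 fold change of -3.72 (adjusted p 1.76e-07, edgeR, Benjamini-Hochberg). Of 13 fatty acid synthesis genes, 12 were tested, 2 fell and 0 rose, namely Elovl5, an elongase (-0.66), and Scd2, a desaturase (-0.60), on the log2 scale. The number that fell was 1 with library size only or without control replicate 2, and 3 with upper-quartile normalization or no filter. For these lists DESeq2 also called 0 higher, and at an unadjusted p under 0.05 (edgeR) 2 efflux and storage genes and 3 fatty acid genes were higher. Of 13 enzymes of the isoprenoid branches that leave the route at farnesyl pyrophosphate, 1 rose and 1 fell. Pggt1b, a subunit of an enzyme that adds geranylgeranyl groups, rose by 0.64 and Rabggta, which serves Rab proteins, fell by 0.94 on the log2 scale. Without control replicate 3, 0 enzymes of this list were called higher, 2 were under several other settings, and 2 were called lower without control replicate 2, Kit-lo replicate 1 or Kit-lo replicate 2. The medians of these lists were 0.028, -0.25 and 0.17.

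Markers of maturation and of other cells moved with the groups, and over all tested genes 12.1% were called higher and 9.83% lower. Of 11 tested late erythroid genes, 8 rose, by 0.81 (Epb42) to 7.31 (Slc4a1) on the log2 scale. The 11 summed to 1690 to 1896 CPM in control and 4596 to 6427 CPM in Kit-lo libraries. Ermap and Tfrc, which were not called, held most of the control sum, at 904 and 678 CPM. The ratio of the sums therefore understates the rise of genes such as Hba-a1 (4.99) and Alas2 (5.58). Of 8 tested early progenitor genes, 4 fell and 1 rose, with sums of 1125 to 1254 and 468 to 519 CPM. Kit, whose protein set the gate, is 1 of the 4. It held most of the difference in the sums, at 598 and 55.2 CPM, so that difference was largely set by the sort. Gata2, Myb and Hhex also fell, by 3.93, 2.83 and 4.39 on the log2 scale, and Zfpm1 rose by 1.46. Macrophage markers summed to 22.6 to 27.5 CPM in control and 12.6 to 16.0 CPM in Kit-lo libraries, with 2 of 6 tested genes called lower, C1qa and Cd163. Cd163 held most of that difference, at 13.5 ± 0.658 and 6.36 ± 1.43 CPM, whereas Csf1r and Cd68 were at 0.31 and 0.13 on the log2 scale and not called, and Adgre1 had 2 counts in each control library and 0 in each Kit-lo library. Granulocyte and mast cell markers summed to 28.9 to 40.7 and 13.4 to 24.4 CPM, with 1 of 3 tested genes, Mpo, called lower. On that list Cpa3 was at 8 to 15 counts in control and 0 in every Kit-lo library, S100a8 was higher in every Kit-lo library (0 to 3 counts in control, 8 to 31 in Kit-lo), and Prtn3 was at 0.35 on the log2 scale and not called. Megakaryocyte markers summed to 4.31 to 6.63 and 6.73 to 16.0 CPM, with 2 of 3 tested genes called higher, Itga2b and Gp9. The third, Pf4, went the other way at -2.31 on the log2 scale and was not called. It had 14 to 33 counts in control and 0 to 9 in Kit-lo libraries. The part of these shifts in the values of Hmgcs1, Insig1, Lipa and Apoe was not tested.

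m6A was read per gene as the level in IP over input of control CFU-E cells. The ratio says which transcripts the capture enriched in normal cells. It does not say where in a transcript the mark lies or what the deletion did to it. No IP of Mettl3-deficient cells is among the samples, so capture that does not depend on Mettl3 could not be set apart. Idi1 was enriched in IP, Sqle had the next largest ratio but was not called, and the other members, at log2 ratios of -0.61 for Fdft1 to 0.59 for Hmgcs1, were not called either. Thus 1 of 7 members was enriched and 0 of 7 depleted at an adjusted p under 0.05, where 7.9% of 11447 tested genes were enriched and 7.86% depleted. DESeq2 also called 1 enriched and 0 depleted, and at an unadjusted p under 0.05 (edgeR) 2 members were higher in IP and 0 lower. The median log2 ratio of IP over input was 0.37 for the members and 0.056 for all genes tested. Both IP libraries lay above both inputs for 3 members, and for 3691 of the 11447 genes tested. These libraries read the 3′ ends of transcripts and were prepared differently from the RNA-seq, so levels are not compared between the experiments.

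**Figure D3:**
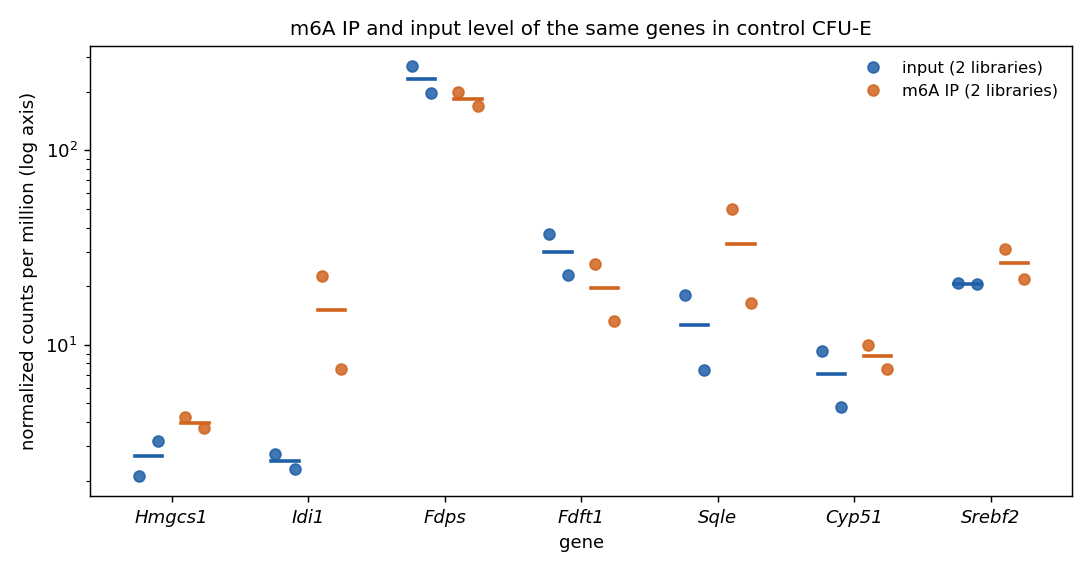
Level of each member (TMM-normalized CPM, log axis) in 2 input and 2 m6A IP libraries of control CFU-E cells. Points are libraries and lines are group means. Both IP points of Idi1 lie above both input points, with means of 15.1 and 2.52 CPM, and the Sqle points of IP and input overlap.

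Idi1 was at 2.73 and 2.30 CPM in the input and at 22.6 and 7.49 CPM in the IP libraries. Both IP libraries were above both inputs, and IP replicate 1 was well above IP replicate 2. The log2 ratio was 2.59 (SE 0.48, 95% interval 1.52 to 3.65), 6.0-fold, with an adjusted p of 0.00556 (edgeR quasi-likelihood, Benjamini-Hochberg), and it was above that of 99.5% of tested genes. The counts were 62 and 41 in the inputs and 944 and 149 in the IP libraries. Without IP replicate 1 the log2 ratio was 1.55 with an adjusted p of 0.0151 (edgeR, Benjamini-Hochberg), and without IP replicate 2 it was 3.16. Its call held in each of 11 alternatives. The change of Idi1 mRNA in Kit-lo cells was 0.0027 on the log2 scale, as given above.

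Sqle was at 17.9 and 7.42 CPM in the input and at 49.9 and 16.3 CPM in the IP libraries, and the second IP library was below the first input. The log2 ratio of 1.38 (SE 0.51, 95% interval 0.26 to 2.51) had an adjusted p of 0.0890 (edgeR's quasi-likelihood test, Benjamini-Hochberg). Both Sqle and Idi1 were higher in replicate 1 than in replicate 2, in the input as in the IP libraries. With the replicate number as a block, Sqle was enriched at 1.32 with an adjusted p of 0.000190 (edgeR, Benjamini-Hochberg), and with 2 numbers the pairing itself could not be established. Without IP replicate 1 the log2 ratio of Sqle was 0.34 with an adjusted p of 0.667 (edgeR, Benjamini-Hochberg), and without input replicate 1 it was 2.14 with an adjusted p of 0.0464 (edgeR, Benjamini-Hochberg).

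Hmgcs1, the member that fell in Kit-lo cells, was at 2.12 and 3.20 CPM in the input and at 4.22 and 3.72 CPM in the IP libraries. The log2 ratio of 0.59 (95% interval -0.24 to 1.41) had an adjusted p of 0.304 (edgeR, Benjamini-Hochberg), on input counts of 48 and 57. Both IP libraries were above both inputs. Srebf2 was at 20.7 and 20.5 CPM in the input and at 31.1 and 21.8 CPM in the IP libraries. Its IP libraries were both above the inputs, with a log2 ratio of 0.37 (95% interval -0.22 to 0.95) and an adjusted p of 0.370 (edgeR, Benjamini-Hochberg). Cyp51 was at 9.30 and 4.78 CPM in the input and at 10.0 and 7.49 CPM in the IP libraries, which overlapped, with a log2 ratio of 0.31 (95% interval -0.48 to 1.10).

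Fdps and Fdft1, which act next to each other in the route, were the members with a ratio below 0. Fdps was at 270 and 197 CPM in the input and at 199 and 169 CPM in the IP libraries, with a log2 ratio of -0.34 (95% interval -0.86 to 0.17). Fdft1 was at 37.3 and 22.8 CPM in the input and at 26.0 and 13.2 CPM in the IP libraries, with a log2 ratio of -0.61 (95% interval -1.39 to 0.17). The groups overlapped for both genes, and the adjusted p values were 0.339 and 0.262 (edgeR, Benjamini-Hochberg). For Fdft1 each IP library was below the input of the same number, and with the replicate number as a block it was depleted at -0.65 with an adjusted p of 0.0213 (edgeR, Benjamini-Hochberg). The overlapping gene Gm43738 had 0.132 to 1.29 CPM in these libraries, far below Fdps. Ctsb, whose exons cover 18.3% of the exonic bases of Fdft1 on the opposite strand, was also counted here. Whether reads of Fdft1 and Ctsb were separated is not known.

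The letters GGACT, a common form of the methylated motif, were counted on the sense strand of the longest coding transcript of each gene. Srebf2 held 7, Fdft1 6, Sqle 3, Hmgcs1 and Cyp51 2 each, Fdps 1 and Idi1 0, against a median of 3 over the genes tested. The shorter GGAC, which includes every GGACT, occurred 3 times in Idi1, 7 times in Fdps and 21 times in Srebf2, and 3.8% of tested genes had fewer than Idi1. Across all tested genes the median log2 IP over input was -0.11 for the 897 genes with 0 GGACT and 0.30 for the 1924 genes with 7 or more. Idi1, with 0 such letters and a log2 ratio of 2.59, therefore stood away from that trend. Fdft1, with 6 and -0.61, was below the median of 0.15 for genes with 4 to 6, but was not called. Its interval of -1.39 to 0.17 included that median, so Fdft1 cannot be placed away from the trend. The counts of letters were not divided by transcript length, and longer transcripts can hold more of them. The part of length in the trend was not tested. The search covers 1 form of the motif in 1 transcript per gene, and the transcripts used by these cells may differ.

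Elsewhere on the route, 1 of 14 other synthesis enzymes was enriched in IP and 1 was depleted, with a median log2 ratio of -0.20. For this list and the m6A lists below, the shares over all 11447 tested genes were 7.9% enriched and 7.86% depleted. Msmo1, which oxidises methylsterols, was at 7.58 and 3.77 CPM in the input and at 31.1 and 20.2 CPM in the IP libraries. Its log2 ratio was 2.17 (SE 0.37) with an adjusted p of 0.00346 (edgeR's quasi-likelihood test, Benjamini-Hochberg). Mvd, which makes isopentenyl pyrophosphate just before Idi1, was lower in IP at -1.52 (SE 0.32, adjusted p 0.0104, edgeR, Benjamini-Hochberg). The consecutive enzymes Mvd and Idi1 thus had ratios of opposite sign, and both passed the test. Without input replicate 1, 0 of these 14 enzymes were depleted, and without input replicate 2 the number was 2. Without IP replicate 2, 2 of them were enriched.

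**Figure D4:**
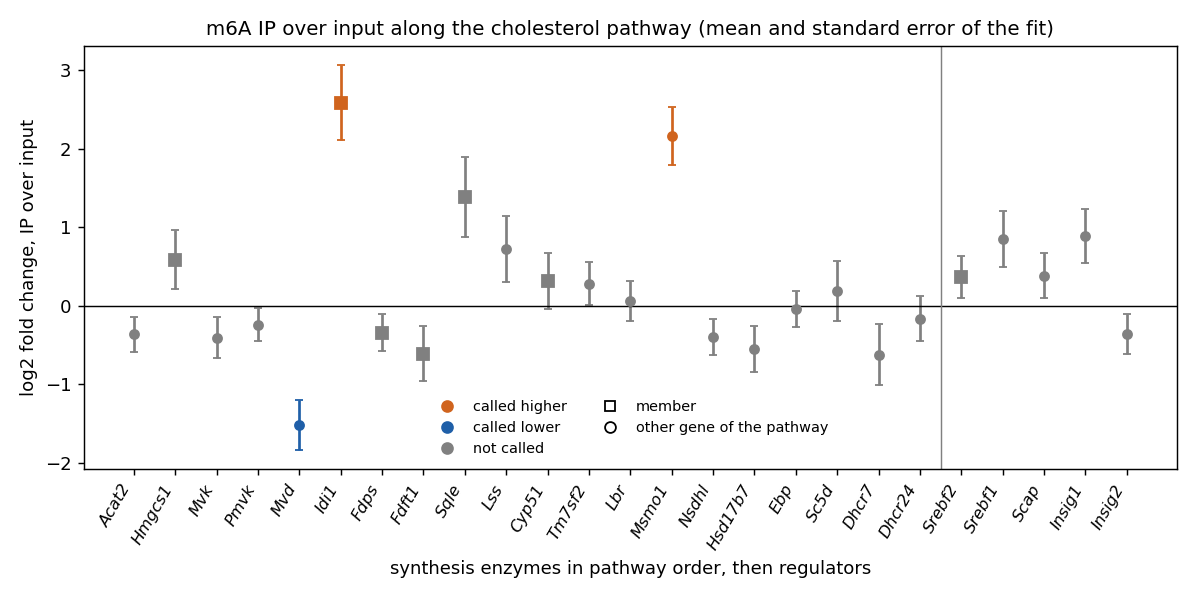
Log2 ratio of m6A IP over input in control CFU-E cells for synthesis enzymes in pathway order, then regulators. Points are estimates of the edgeR fit on 2 against 2 libraries, bars are standard errors and squares are the 7 members. Idi1 at 2.59 and Msmo1 at 2.17 are called higher in IP, and Mvd at -1.52 is called lower.

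None of the 10 genes of SREBP processing and feedback was called in either direction in the m6A fit (edgeR), with log2 ratios of 0.89 for Insig1 (adjusted p 0.105, Benjamini-Hochberg), 0.38 for Scap and -0.36 for Insig2. At an unadjusted p under 0.05 (edgeR) 3 were higher and 0 lower, DESeq2 called 0, and without IP replicate 2 edgeR called 3 enriched. Of 9 tested uptake and transport genes 0 were called by edgeR or DESeq2, also at an unadjusted p under 0.05 (edgeR), with a median log2 ratio of 0.14. Efflux and storage had 2 of 7 tested genes enriched and 1 depleted, with Abcg1, a sterol exporter, at 1.96, while Nr1h3 was depleted from an input of 0.702 ± 0.120 CPM. Without input replicate 1, and likewise without input replicate 2, 1 gene of that list was enriched and 0 depleted, and the depleted count was also 0 without IP replicate 2. Fatty acid synthesis had 3 of 11 enriched and 0 depleted, led by Acaca, the carboxylase at its first step (1.47), and Acly, which supplies cytosolic acetyl-CoA (1.28). Without input replicate 1 the number enriched was 0 and without IP replicate 1 it was 1, while DESeq2 called 1 depleted, and 1 was lower at an unadjusted p under 0.05 (edgeR). Isoprenoid branch enzymes had 2 of 13 depleted and 0 enriched, with Coq2 of ubiquinone synthesis at -3.02 and Fnta, a farnesyltransferase subunit, at -1.36. The number depleted was 4 with the replicate block and 1 without input replicate 1, DESeq2 called 0 enriched, and 1 was higher at an unadjusted p under 0.05 (edgeR). All lists were written with earlier results of these data known, and their counts are descriptions.

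Hmgcs1 was the 1 member called in RNA-seq, with a log2 fold change of -1.18 and a log2 IP over input of 0.59 that was not called. Idi1 was the 1 member enriched in IP, with a log2 ratio of 2.59 and a log2 fold change of 0.0027 in RNA-seq. Msmo1, the other route gene enriched in IP, was at 0.27 on the log2 scale in RNA-seq and was not called. Insig1, which fell by 1.41, had a log2 ratio of 0.89 that was not called.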

How the data were processed

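RNA-seq libraries (Smart-seq2, oligo-dT primed) and m6A libraries (SLIM-seq, 3′ ends) of sorted mouse CFU-E were used. The authors trimmed reads with fastp 0.23.4 and deposited estimated counts per gene from Kallisto 0.48.0 and tximport, not normalized. The methods name mm10, whereas the submitters' processing notes name mm10 and GRCm39. Use of strand and of molecular identifiers in counting is not given in the sources used here. Of 16 labelled samples, 6 proerythroblast samples were not analysed here. The estimated counts were rounded to whole numbers before the fit. Totals were 17429262 to 21329242 in RNA-seq and 19421059 to 37142742 in m6A libraries. The replicate spread (biological coefficients of variation of 19.1% and 21.9%) set the precision. PCR copies are not independent molecules.

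Each experiment was fitted alone, with no block, in edgeR 4.0.16 (R 4.3.3; TMM, filterByExpr, glmQLFit, glmQLFTest), with Benjamini-Hochberg adjustment over all tested genes. Calls needed an adjusted p under 0.05 and, in RNA-seq, a fold of at least 1.5. The TPM filter in the study's methods was replaced by filterByExpr. SE is the absolute log2 fold change over the square root of F, and 95% intervals use the total (residual plus prior) degrees of freedom of the fit. On simulated data with 200 changed genes, edgeR recovered 200 with 7 false calls among 11979 genes of the RNA-seq comparison, and 199 with 11 false calls among 11447 genes of the m6A comparison. Recovery at the fold changes and counts of the members was not tested. Alternatives were DESeq2 1.42.0, other normalizations and filters, a replicate block and leaving out each library.

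The members and all lists were chosen with earlier results of these data known. Named genes are the members, Scap, Insig1 and Insig2, up to 4 called genes of each list with the largest RNA-seq change and separated groups, up to 2 with the largest called IP over input difference, Mettl3, Kit, and the 5 genes nearest to the members' mean pattern. Of the lists, 2 genes are not reported here and were taken out of the counts. Others are named for their overlap with a member, or as markers, after their values were seen. Positions, transcripts and overlaps came from the GRCm38 annotation, and near-identical copies (at least 90% over 200 bases) from BLAST 2.17.0. Promoters were taken from RefSeq (GRCm38.p6), with entries for 4 of the 7 members. Figures were drawn with matplotlib 3.10.9.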

Additional observations from a re-analysis of the deposited data

How the results depend on the processing

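Hmgcs1 was called lower in RNA-seq under all 13 alternatives, with log2 fold changes of -1.40 to -0.93, and Idi1 was enriched in IP under all 11, with log2 ratios of 1.55 to 3.16. The number of members called lower in RNA-seq was 1 to 2 when single libraries were left out, and the second was Fdps without control replicate 1. The number enriched in IP was 2 with upper-quartile normalization, 2 with the replicate block and 1 to 2 when single libraries were left out, and the second was Sqle, without input replicate 1 or IP replicate 2. With the replicate block, 1 member, Fdft1, was depleted (log2 ratio -0.65, adjusted p 0.0213, edgeR, Benjamini-Hochberg). No other call of a member changed. The cause was not tested.

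Values near 0 changed sign without a call. The log2 fold change of Idi1 in RNA-seq was -0.035 with upper-quartile normalization, -0.016 with no filter and -0.052 to 0.095 when single libraries were left out. That of Cyp51 was -0.036, -0.017 and -0.060 to 0.062 under the same settings and -0.00026 with the replicate block, and its IP over input was -0.091 to 0.85 when single libraries were left out.

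Same-numbered libraries did not deviate together in RNA-seq (r of -0.072 to 0.034 across genes), and in the m6A table r was 0.21 with only 2 numbers, so numbers were not taken as pairs. The block gave 1783 enriched and 1755 depleted genes in the m6A table, against 904 and 900 without it. Enriched genes numbered 1451 with upper-quartile normalization and 164 to 1358 without single libraries, and depleted genes 608 with library size only and 427 to 968 without single libraries. The lowest counts, 164 and 427, were without input replicate 1. The median log2 ratio of all genes moved from 0.056 to 0.21 with library size only and to 0.18 with upper-quartile normalization, and Idi1 was then at 2.78 and 2.70. With 2 IP and 2 input libraries and 41 to 62 input counts for Idi1, its ratio is known only within the interval given.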
